A study of Mus musculus with 6 samples.

Results

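The set described here holds 10 mouse liver genes: *Lamb3*, *Cntnap1*, *Chrna2*, *Agap2*, *Cgref1*, *Npnt*, *Krt23*, *9430037G07Rik*, *Gm15401* and *3930402G23Rik*. They were chosen from the most raised genes of the authors' comparison of *Pai-1*+/- with WT livers that have no settled function in the liver. All 10 were found by symbol among the 24421 genes of the deposited table. The fold changes, standard errors and p-values that chose them belong to the authors' comparison and are not used here. The size, the direction and the error of the genotype difference are therefore not given, and whether the genes are raised was not checked. The only value used is the authors' mean normalized count, a mean over the libraries of both genotypes, which has no SD and no n of its own.

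Liver mRNA was sequenced from 3 WT mice and 3 mice heterozygous for *Pai-1*, the gene of plasminogen activator inhibitor 1. All were C57BL/6 mice of 21 weeks according to the labels, fed without restriction, and male according to the methods, although the labels give the sex of the WT mice only. The text of the paper gives a slightly younger age, names the J substrain and states that these mice ate standard chow. The heterozygotes came from crosses of *Pai-1*-/- and WT mice, so every cell type of the liver carries the lost allele. The paper calls the WT mice littermate controls, and how WT littermates arose from this cross is not stated. The 6 columns of counts per animal carry animal numbers that match no sample label, so values per mouse and per genotype and the depth of each library are not given. Bulk liver mixes several cell types, and in such a mean fewer cells of a type and less RNA per cell cannot be told apart.

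The genes have little in common by textbook function. *Lamb3* encodes the beta 3 chain of laminin-332, a basement membrane protein, and *Npnt* encodes nephronectin, a matrix protein that binds integrins. *Cntnap1* encodes a membrane protein that joins contactin 1 and neurofascin at the axon-glia junctions of myelinated nerves, *Chrna2* a ligand-binding subunit of nicotinic acetylcholine receptors, and *Agap2* a GTPase-activating protein for Arf proteins. *Krt23* encodes a type I keratin, a subunit of the intermediate filaments of epithelial cells, and *Cgref1* a protein with EF-hand motifs named for its link to growth arrest. The other 3 genes give non-coding RNAs for which no role is stated here.

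Their positions and structures were taken from GENCODE M21 on GRCm38, the assembly also known as mm10, to which the authors aligned the reads. The 10 genes lie on 9 chromosomes, 5 of them on the plus strand. *Cntnap1* (chr11:101170523-101190724, plus strand) and *Krt23* (chr11:99477974-99493137, minus strand) share chromosome 11 but lie 1677385 bases apart. *Lamb3* spans chr1:193207699-193343878 on the plus strand, and its longest transcript has 27 exons and 4867 bases. The span of *Lamb3* contains or overlaps *Hsd11b1* and *G0s2* on the other strand, with 0 exonic bases shared. Their mean normalized counts were 16701 and 1398, against 735 for *Lamb3*. RefSeq windows around the start of *Lamb3* begin at bases 193301744 and 193301993, far inside this span. *Chrna2* is at chr14:66135039-66152948 (plus strand), *Agap2* at chr10:127075284-127093169 (plus strand), *Npnt* at chr3:132881745-132950291 (minus strand) and *Cgref1* at chr5:30933143-30945591 (minus strand). The longest coding sequences of the 7 protein-coding genes run from 975 bases in *Cgref1* to 4155 bases in *Cntnap1*.

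Of the non-coding genes, *9430037G07Rik* (chr9:88595325-88599516, minus strand) and *3930402G23Rik* (chr8:10924427-10928696, minus strand) are annotated as long intergenic RNAs. *Gm15401* (chr6:72629288-72637717, plus strand) is annotated as antisense, and it faces *Tcf7l1* on the other strand, with which it shares 179 exonic bases, or 11.2% of its own. The longest transcript of *Gm15401* has 6 exons and 1107 bases, that of *9430037G07Rik* 5 exons and 3177 bases, and that of *3930402G23Rik* 3 exons and 3086 bases. The nearest protein-coding gene to the right of *3930402G23Rik* is *Irs2*, an adaptor of the insulin receptor, at a distance of 55984 bases. *Chrna2* lies 308 bases from *Ptk2b* and 10538 bases from *Ephx2*.

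Exonic bases were shared with another annotated gene by 3 of the 10 genes. *Cntnap1* shares 233 bases with *Plekhh3* on the other strand, which is 3.97% of its exonic bases. *Gm15401* shares, besides the bases of *Tcf7l1*, 926 bases or 57.9% of its exonic bases with *Gm37969*, an unresolved transcript on the other strand. *9430037G07Rik* shares 334 bases with a processed pseudogene on the other strand and 72 bases with a small nucleolar RNA on its own strand. Whether reads were counted by strand is not given in the sources used here. The values of *Gm15401*, *Cntnap1* and *9430037G07Rik* may thus include reads of these partners. *Tcf7l1* had a mean normalized count of 214 and *Plekhh3* one of 251, against 216 for *Gm15401* and 709 for *Cntnap1*.

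The sequence before the RefSeq start site is shown for the 3 non-coding genes, whose annotation says least about them, and for *Krt23*. *Krt23* has an E-box before its start. *Cgref1* also has an E-box before a RefSeq start but is not shown. Each line holds 250 bases before the RefSeq start of transcription (GRCm38.p6), 5′ to 3′ on the strand of the gene, with matches to the motifs searched in capitals. The windows are chr11:99493121-99493370 for *Krt23*, chr9:88599244-88599493 for *9430037G07Rik*, chr6:72629038-72629287 for *Gm15401* and chr8:10928458-10928707 for *3930402G23Rik*. GENCODE places some starts further upstream than RefSeq, so that 250 of the 250 bases shown for *9430037G07Rik*, 239 for *3930402G23Rik* and 17 for *Krt23* lie inside the gene as GENCODE draws it, and 0 for *Gm15401*.
Krt23: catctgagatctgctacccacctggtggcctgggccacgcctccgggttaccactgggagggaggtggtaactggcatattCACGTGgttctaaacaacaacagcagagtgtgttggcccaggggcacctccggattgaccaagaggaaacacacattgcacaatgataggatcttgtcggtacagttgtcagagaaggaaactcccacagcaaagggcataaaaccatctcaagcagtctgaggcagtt
9430037G07Rik: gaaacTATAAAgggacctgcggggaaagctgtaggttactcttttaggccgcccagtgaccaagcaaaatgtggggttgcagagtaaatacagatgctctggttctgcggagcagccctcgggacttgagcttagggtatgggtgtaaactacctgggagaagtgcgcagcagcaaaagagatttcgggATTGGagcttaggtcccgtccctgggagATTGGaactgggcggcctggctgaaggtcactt
Gm15401: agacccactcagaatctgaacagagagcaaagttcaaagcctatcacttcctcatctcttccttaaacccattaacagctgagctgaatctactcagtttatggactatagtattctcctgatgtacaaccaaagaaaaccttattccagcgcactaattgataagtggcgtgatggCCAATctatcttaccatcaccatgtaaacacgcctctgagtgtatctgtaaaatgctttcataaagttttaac
3930402G23Rik: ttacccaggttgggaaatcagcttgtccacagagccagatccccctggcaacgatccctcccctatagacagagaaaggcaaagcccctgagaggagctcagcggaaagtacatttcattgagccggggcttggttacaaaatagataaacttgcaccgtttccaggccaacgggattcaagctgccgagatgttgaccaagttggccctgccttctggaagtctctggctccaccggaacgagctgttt

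RefSeq windows of 300 bases, 250 before and 50 after the start, were at hand for 8 of the 10 genes, 12 windows in all, and *Cntnap1* and *Chrna2* had none. Both strands were searched for 5 motifs, and no match overlapped another. The E-box CACGTG, an element that CLOCK and BMAL1, among other proteins, can bind, was found in *Krt23* at position -169 from the start and in *Cgref1*. Its position in *Cgref1* is -43 or 10, depending on the RefSeq start used. Of all 32851 windows, 7.15% hold this E-box. The CCAAT box (CCAAT) was found in 4 of the 12 windows, against 37.4% of all windows. These were the windows of *Gm15401*, *9430037G07Rik*, *Agap2* and *3930402G23Rik*. In *3930402G23Rik* the match lies after the start, outside the bases shown above. A TATA box (TATAAA) was found in *9430037G07Rik* only, at position -245, and in 13.6% of all windows. The D-box TTATGTAA (0.938% of all windows) and DR1, the half-site AGGTCA repeated after 1 base of any kind (0.0396%) were found in none of the 12 windows. These matches are letters in a window and say nothing of binding.

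The 8 genes with a window differed in base composition around the start. The upstream *Npnt* window had 76.7% G and C and 32 CpG, more G and C than 97.3% of all windows. The *Gm15401* window shown above had 41.7% G and C and 4 CpG, more G and C than 13.4% of all windows. The median over all windows was 52.7% with 7 CpG, and the windows of *Krt23* (53.0%), *9430037G07Rik* (53.3%) and *3930402G23Rik* (52.3%) lay close to it.

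The mean normalized counts, pooled over both genotypes, placed the 10 genes among moderately expressed transcripts. The genes were chosen for a difference between the genotypes, so the level in WT or *Pai-1*+/- livers alone may differ from the pooled mean. This holds for the levels per kb and the ratios below as well. Of the 24421 genes, 17678 had a mean above 0, with a median of 170, and 8 of the 10 genes lay above this median. *Lamb3* had the highest mean of the 10, at 735, and ranked 4851 in the table. *Cntnap1* followed at 709 and *Chrna2* at 664. The next, *9430037G07Rik*, had 316. These means are not corrected for length.

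*Agap2* had a mean normalized count of 280, *Gm15401* 216, *Cgref1* 201 and *Npnt* 186. *3930402G23Rik* at 121 and *Krt23* at 91.7 were the 2 genes below the median of the table. *Krt23* exceeded 43.4% of the genes with a mean above 0, and *Lamb3* 72.6% of them. Together the 10 genes took 0.0117% of the summed means, while albumin alone, the main plasma protein of hepatocytes, took 7.17%. Without values per mouse it cannot be said which neighbours in this order differ beyond their spread.

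**Figure D1:**
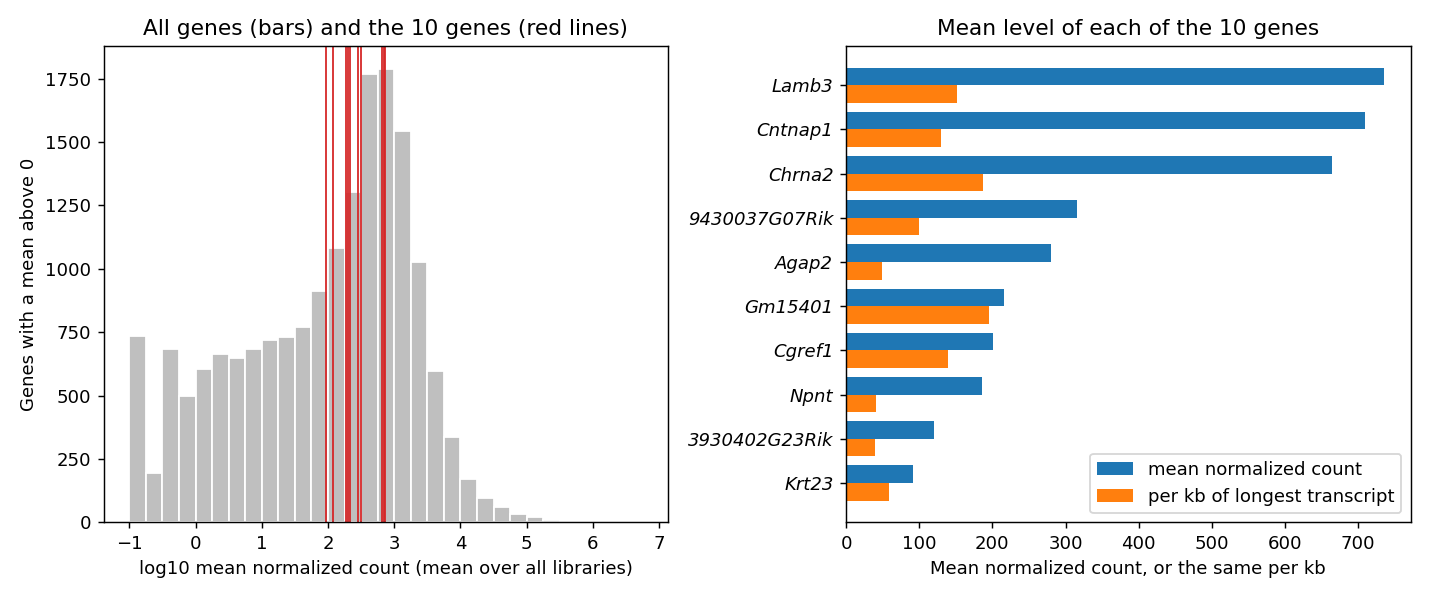
Left, number of genes with a mean above 0 (y axis) by log10 mean normalized count over all libraries (x axis), with the 10 genes as red lines between 91.7 and 735. Right, mean normalized count of each gene (blue bars) and the same value per kb of its longest transcript (orange bars), without error bars because the value is one mean over both genotypes. *Lamb3* has the longest blue bar, and *Gm15401* the longest orange bar.

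Levels of different genes can be compared only per length, because a longer transcript gives more reads. Per kb of the longest annotated transcript, the 10 genes spanned from 39.1 to 195, a range of 4.99 times against 8.01 times for the means themselves. *Gm15401*, whose transcript is short, was highest at 195 per kb, followed by *Chrna2* at 187, *Lamb3* at 151, *Cgref1* at 139 and *Cntnap1* at 130. *9430037G07Rik* had 99.5 per kb and *Krt23* 58.6. *Agap2* had 49.7, *Npnt* 40.3 and *3930402G23Rik* 39.1 per kb, and these 3 lay below the median of 53.8 per kb over the 16954 matched genes with a value above 0.

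*Lamb3* was compared with the other chains of laminin. Its level per kb was higher than that of all 9 other laminin chains compared. *Lamb3* was chosen as raised and had to be detected, while these chains were listed by family alone. Part of the gap may come from this choice. *Lama3*, which encodes the alpha 3 chain of laminin-332, had 14.7 per kb. With the longest transcripts, of 4867 bases for *Lamb3* and 10548 for *Lama3*, the level of *Lamb3* was thus 10.3 times that of *Lama3*. The protein holds 1 chain of each kind. Which *Lama3* transcript these livers make was not tested, and a shorter one would make the ratio smaller. The chain nearest to it was *Lamc1*, the gamma 1 chain of most laminins, at 70.1 per kb. *Lamb1* and *Lamb2*, which encode the more widespread beta chains, had 40.4 and 27.2 per kb. Of the receptors, *Itga3*, an alpha subunit that binds laminin-332 together with the product of *Itgb1*, had 50.4 per kb and *Itgb1* itself 1854 per kb. *Itga6* and *Itgb4*, which pair to bind laminin-332 in hemidesmosomes, had 14.7 and 3.49 per kb, and *Col17a1*, another hemidesmosome component, 0.264 per kb.

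*Npnt*, at 40.3 per kb, was 1.84 times as abundant per kb as *Itga8*, the alpha subunit of its main integrin receptor, at 21.9 per kb. *Itgb1*, given above, encodes the beta subunit of that receptor. *Egfl6*, a matrix protein of the same family, had a mean normalized count of 2.71.

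*Chrna2* had the highest level per kb among the nicotinic receptor subunits listed. As a gene chosen as raised, it had to be detected, while the others were listed by family alone. Part of the gap may come from this choice. The other 15 subunit genes all had lower levels per kb, 8 of them are listed at 0, and 11 had a mean normalized count under 1. The highest was *Chrnb2*, a beta subunit able to form receptors with the product of *Chrna2*, with a mean of 87.1, or 13.6 per kb. The level of *Chrna2* per kb was 13.7 times that of *Chrnb2* and 27.7 times that of *Chrna4*. *Chrnb4*, the other beta subunit with which it can form receptors, had a mean normalized count of 0.172.

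*Cntnap1* likewise had the highest level per kb among the genes of its group that were matched by symbol. The same limit from the choice of the gene applies. Of the 8 listed genes, 7 matched the table by symbol and 5 are listed at 0, among them *Cntn1*, which encodes contactin 1, and *Cntnap2*, *Cntnap4*, *Cntnap5a* and *Cntnap5b*. *Nfasc*, which encodes neurofascin, had 3.43 per kb, and *Cntnap1* was 38.0 times as high. *Epb41l3* was not matched by symbol.

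*Agap2* and *Krt23* were not the leading genes of their groups. *Agap2* lay at 49.7 per kb between *Agap1* at 32.4 and *Agap3* at 262 per kb, and the 8 listed Arf GAP genes had a median of 122 per kb. Per kb of coding sequence the order of the first 2 turned, with *Agap1* 1.91 times as high as *Agap2*. *Krt23* had 58.6 per kb, above 9 of the other 11 keratins. *Krt18* and *Krt8*, the keratin pair of hepatocytes, were higher than *Krt23* by 79.3 times and 36.1 times per kb. *Krt19*, a keratin of bile duct cells, was close to it at 45.2 per kb. *Krt20*, the nearest protein-coding gene to the left of *Krt23* at 39823 bases, had 12.9 per kb, and *Krt39*, on the other side, is listed at 0.

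**Figure D2:**
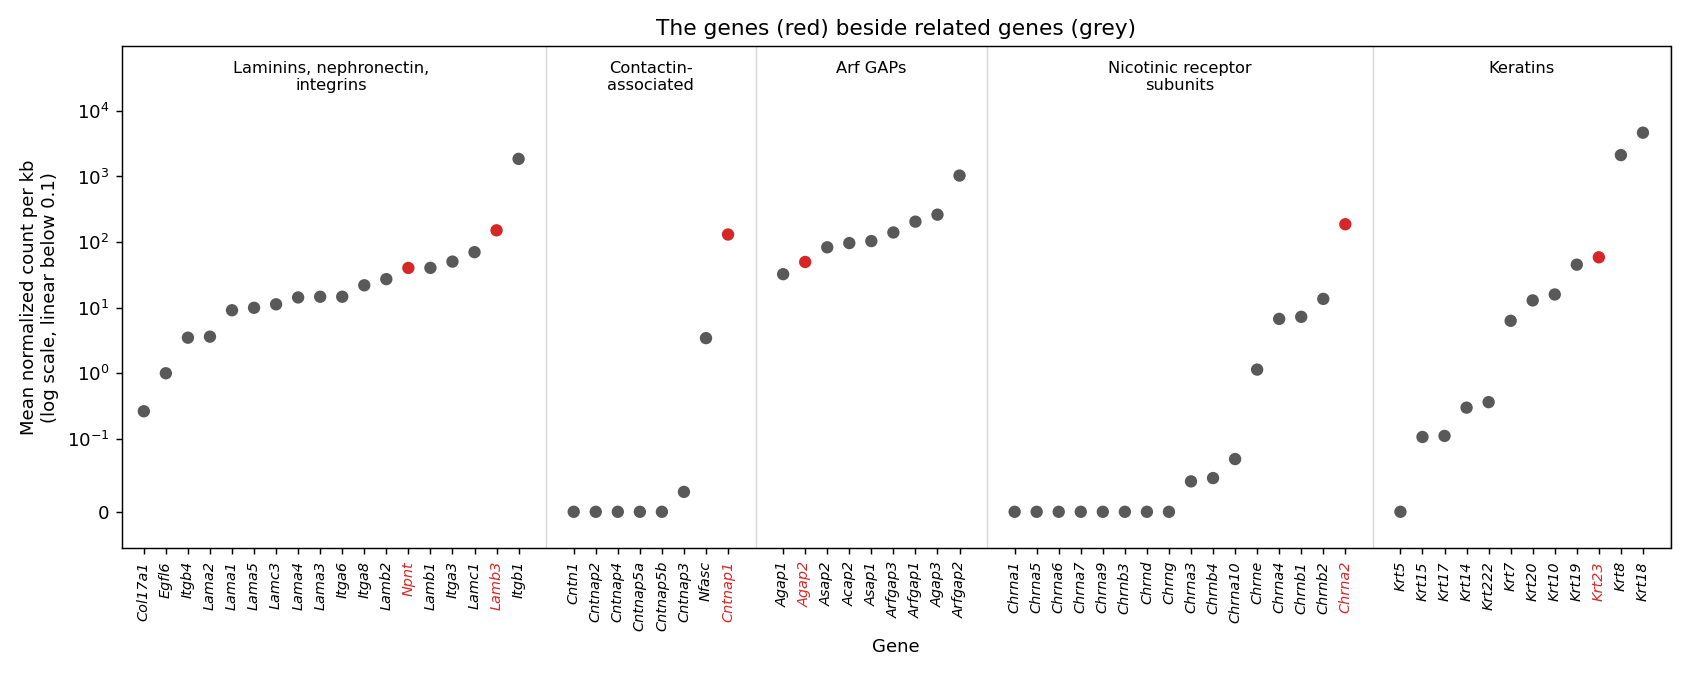
Mean normalized count per kb of the longest transcript (y axis, log scale that is linear below 0.1) for single genes (x axis) in 5 groups of related genes, with members of the set in red, the others in grey and no error bars. *Chrna2* and *Cntnap1* are the highest points of their groups, *Lamb3* lies above every other laminin chain drawn, and *Krt23* lies far below *Krt8* and *Krt18*.

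The tissue was checked against markers of the cell types that a liver sample can hold. All 5 hepatocyte markers were abundant, from 23793 to 1059760 per kb. The levels of the 10 genes ran from 39.1 to 195 per kb, below every hepatocyte marker. The 5 endothelial markers ranged from 70.7 to 170 per kb, the 6 stellate cell markers from 44.6 to 887, the 5 Kupffer cell markers from 79.6 to 1166 and the 6 cholangiocyte markers from 4.58 to 776 per kb. Only the cholangiocyte range held all 10 genes, and its upper end rests on *Spp1* alone, at 776 per kb. The next highest cholangiocyte marker, *Sox9*, had 64.9 per kb. *Gm15401*, *Chrna2*, *Lamb3*, *Cgref1*, *Cntnap1* and *9430037G07Rik* lay above *Sox9*. *Npnt* and *3930402G23Rik* lay below the stellate range. These genes, *Agap2* and *Krt23* lay below the Kupffer and endothelial ranges, and *Chrna2* and *Gm15401* lay above the endothelial range. The median of all matched genes with a value above 0, 53.8 per kb, also fell within the stellate and cholangiocyte ranges. A mean over whole liver does not show which of these cell types carried a transcript, and this was not tested.

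Several of the 10 genes are best known from nerves or from stratified epithelia. The neuron and glia markers were low, at most 7.66 per kb (*Mbp*), with *Snap25* at 0.0372 per kb, while *Cntnap1* and *Chrna2* had 130 and 187 per kb. Of the 4 keratinocyte markers, *Krt5* and *Krt1* are listed at 0, *Krt14* had 0.299 per kb and *Krt10* 15.9 per kb, while *Lamb3* had 151 per kb.

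**Figure D3:**
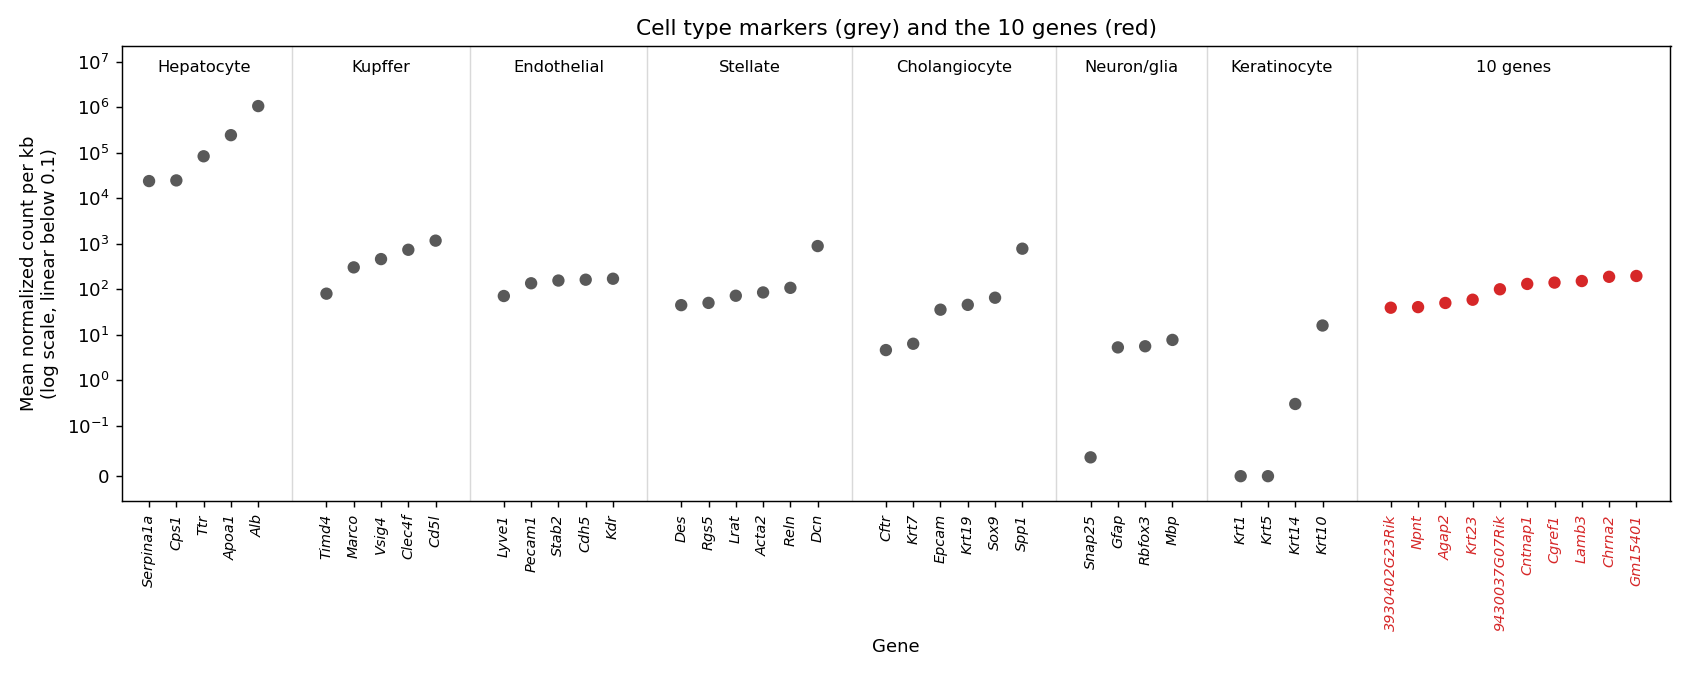
Mean normalized count per kb of the longest transcript (y axis, log scale that is linear below 0.1) for markers of 7 cell types (grey) and the 10 genes (red), one gene per position on the x axis, without error bars. The red points lie between 39.1 and 195 per kb, below every hepatocyte marker and above every neuron and glia marker and every keratinocyte marker.

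Targets of PPAR-alpha, the nuclear receptor that drives fatty acid oxidation in hepatocytes, were listed as a reference for induced liver genes. All 16 were in the table, with a median of 5923 per kb and a lowest value of 232 per kb for *Fgf21*. Per kb of the longest transcript, each of the 10 genes had a lower level than *Fgf21*. This order was not compared with the other lengths. Whether the targets were induced in these livers was not tested.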

How the data were processed

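Libraries of liver mRNA from 3 WT and 3 *Pai-1*+/- mice were sequenced as single-end reads. The authors used the BaseSpace application RNA Express, which aligned the reads to mm10 with STAR and ran DESeq2. The submitters' processing notes also name HOMER, and versions, the gene annotation and the strand setting are not given in the sources used here. The signal in the deposited table is the authors' mean over all libraries of gene counts divided by size factors, which sums to 30045982. The table's other 6 columns hold the authors' own comparison (log2 fold change, its standard error, Wald statistic, p-value, adjusted p-value and a status) and were not used. The second deposited table holds counts in 6 per-sample columns that match no sample label, and these were not used. The intended edgeR test therefore could not be run, and no comparison, p-value or interval is given.

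Means were divided by the length of the longest GENCODE M21 transcript in kb. Of 24421 symbols, 95.5% matched 1 annotated gene. The results of some listed genes are not reported here. Promoter windows came from RefSeq (GRCm38.p6). The genes named are the 10 members, the genes of the lists of partners and markers, genes that share exons with or flank a member, and, in the closing section, those next to a member in mean level. The flanking and exon-sharing genes and the motifs were chosen after the data were seen. The members and lists were chosen with earlier results of these data known. Python 3.11.15, NumPy 2.4.6, pandas 2.3.3 and Matplotlib 3.10.9 were used, and the interval and motif functions were tested on simulated data.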

Additional observations from a re-analysis of the deposited data

How the results depend on the processing

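No paired analysis was possible because no column of counts could be assigned to a sample. For the same reason the DESeq2 fit, the fit without TMM, the fit without a filter and the fits that leave out each library were not run, and the depth of the libraries is unknown. The levels per kb depended on the length used. With all annotated exons merged, an alternative chosen after seeing the data, they fell to as little as 0.693 times the values given (*Cgref1*), *Krt23* with its single transcript did not move, and *Chrna2* at 175 per kb took the first place from *Gm15401* at 135. With the coding sequence alone, the values of the 7 protein-coding genes were 1.24 (*Krt23*) to 2.53 (*Npnt*) times as high, because that length is shorter. *Lamb3*, *Cntnap1* and *Chrna2* lay above 9 of 9, 7 of 7 and 15 of 15 family genes and *Krt23* above 9 of 11 with each of the 3 lengths. *Agap2* lay above 1 of 2 other AGAP genes with transcripts or merged exons and above 0 with coding sequences, where *Agap1* was 1.91 times as high as *Agap2*. The ratio of *Lamb3* to *Lama3* ranged from 7.72 to 13.5, that of *Chrna2* to *Chrnb2* from 10.8 to 16.9 and that of *Cntnap1* to *Nfasc* from 20.6 to 51.1.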

Other observations

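The genes next above and next below each of the 10 in mean normalized count give a sense of the scale, without correction for length. *Lamb3* lay between *Pam* and *Tmem9b*, *Cntnap1* between *Mtap* and *A230046K03Rik*, and *Chrna2* between *Mxd4* and *Tmx3*. *9430037G07Rik* lay between *Ppp2r3c* and *Tsr2*, *Agap2* between *Mrps11* and *BC017643*, and *Gm15401* between *Ubox5* and *Naf1*. *Cgref1* lay between *Snhg3* and *Wfdc17*, *Npnt* between *Cyb5rl* and *Aatk*, *3930402G23Rik* between *Fkbpl* and *Thoc6*, and *Krt23* between *Trim47* and *Adcy7*.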
